A study of Mus musculus with 24 samples.

Results

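Open chromatin of KLS cells lacking both Daxx and Pu.1 (double knockout, DKO) was set against that of KLS cells lacking Daxx alone (Daxx-KO). KLS cells (c-Kit+ Lin- Sca-1+) are the bone marrow fraction that holds the haematopoietic stem cells and the multipotent progenitors. The members were the KLS libraries whose titles give 3wpi with Daxx F/F Pu.1 F/F or with Daxx F/F alone, which are 5 of the 24 ATAC-seq samples of the series, 2 DKO and 3 Daxx-KO. Each group was represented by 1 peak list, with 22156 distinct intervals in DKO and 44694 in Daxx-KO, out of 549003 intervals in the 11 lists of the series. An interval was called shared when at least 1 bp of it was covered by an interval of the other list.

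ATAC-seq uses the Tn5 transposase to place sequencing adapters in accessible DNA. Both groups came from C57BL/6 mice with floxed Daxx on both alleles and 1 Cre allele, collected 3 weeks post induction (w.p.i.), and the DKO mice carried in addition floxed alleles of Pu.1, the product of Spi1. The Daxx-WT KLS mice (Daxx +/+ Cre +/-, 2 libraries) were collected at the same time and served as the reference of both site tables. Per the study's methods the KLS cells came from Mx1Cre mice treated with pI:pC, an inducer of interferon, to which the Mx1 promoter responds. A group lacking Pu.1 alone was not analysed here. The labels do not say whether the libraries of a group came from separate mice.

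Pu.1 is an ETS-family transcription factor that binds purine-rich GGAA sites. It is required for the development of macrophages, granulocytes and B cells, and it is known for opening chromatin at distal enhancers, often next to IRF, C/EBP or RUNX factors. Daxx deposits the histone variant H3.3 in heterochromatin. C/EBP factors, above all C/EBPα and C/EBPε, drive the granulocytic programme, whose late genes encode the proteins of neutrophil granules.

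Examples of 2 kinds of sequence whose shares differed between the lists are shown first, because the results return to them. The first kind comprised distal peaks of the Daxx-KO list that had no counterpart in DKO and held the Pu.1 letters GAGGAAGT (capitals, either strand, plus strand of mm10 printed). The peak near Cxcl5, a neutrophil-attracting chemokine, was the highest distal peak of this class and lay between genes 16720 bp from the start site, and the Meis1 example lay in an intron. The Itgam example lay between genes 13172 bp from its start site, and the Irf4 example was in an exon of the non-coding transcript Gm29675.
Cxcl5 chr5:90742191-90742250: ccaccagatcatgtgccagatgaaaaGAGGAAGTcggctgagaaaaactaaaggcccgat
Meis1 chr11:18970138-18970197: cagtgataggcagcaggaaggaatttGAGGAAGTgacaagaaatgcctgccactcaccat
Itgam chr7:128048887-128048946: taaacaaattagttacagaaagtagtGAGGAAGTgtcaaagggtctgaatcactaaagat
Irf4 chr13:30786264-30786323: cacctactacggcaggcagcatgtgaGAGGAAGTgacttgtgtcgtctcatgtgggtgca

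The second kind comprised distal peaks found in DKO and not in Daxx-KO that held the C/EBP letters TTGCNNAA on either strand (capitals, plus strand of mm10 printed, so that a match on the minus strand reads as its reverse complement). Only the match nearest the summit is in capitals, and the Csf3r stretch holds a further TTGCACAA in small letters. The Erg example lay in an intron of Erg and the other examples lay between genes. All 4 of these peaks were present in the Daxx-WT list of granulocyte-monocyte progenitors (GMPs) and absent from that of long-term haematopoietic stem cells (LT-HSCs).
Il1f10 chr2:24311826-24311885: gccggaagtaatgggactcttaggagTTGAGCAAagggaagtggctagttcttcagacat
Csf3r chr4:126017833-126017892: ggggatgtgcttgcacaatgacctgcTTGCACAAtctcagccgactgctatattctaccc
Kit chr5:75382398-75382457: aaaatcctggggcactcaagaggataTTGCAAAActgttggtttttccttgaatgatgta
Erg chr16:95388380-95388439: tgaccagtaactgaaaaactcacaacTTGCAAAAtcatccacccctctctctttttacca

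The targeted genes were examined first. At Spi1 (chr2:91082390-91115756, plus strand, 5 exons) a listed site covering its final exon (exon 5) gave 31.06 and 58.13 in scaled reads for Daxx-WT against 2.12 and 4.68 for DKO, so both DKO values lay far below both controls. Scaled reads are the reads of a library at a site divided by 1 constant for that library. Exons are numbered in the 5-exon transcript, and a longer annotated transcript starts upstream of it. The peak at exon 1 was in both lists, with a fold enrichment of 8.16 in Daxx-KO and 5.52 in DKO, as was the peak at the upstream start (6.45 and 4.61). Exons 6 to 7 of Daxx had 6.36 and 8.43 scaled reads in DKO against 79.87 and 44.97 in Daxx-WT. In the Daxx-KO table the same exons had 13.36, 7 and 9.41 in Daxx-KO against 88.49 and 53.87 in Daxx-WT. Read numbers over these exons were thus low in every knockout library, as the labels give the genotypes.

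Some markers of the sorted population had promoter peaks and others had none. Kit had a promoter peak in Daxx-WT, Daxx-KO and DKO (fold enrichment 7.0, 7.44 and 6.24), as did Flt3 (8.33, 8.54 and 5.21), both receptors of early progenitors. Cd34 had one in Daxx-WT and Daxx-KO (5.59 and 5.49) and none in DKO, Procr had one in Daxx-KO alone (4.10), and Ly6a, which encodes Sca-1, and Slamf1 had none in any of the 3 lists. Among the lineage markers that the sort removes, Itgam (CD11b) had a promoter peak in Daxx-WT and Daxx-KO (4.75 and 4.63) and none in DKO, as did Ptprc (7.53 and 9.55), whose B220 form the sort uses. Itgax had one in both knockouts, and Ly6g, Klrb1c and Cd3e had none in the 3 lists. In bulk libraries, fewer cells of one type and less accessible DNA per cell cannot be told apart.

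The lists differed in length and in height, which touches every count that follows. The headers of the site tables give 9.98 and 16 reads per window of 600 bp in the DKO libraries and 4.54 to 8.13 in the Daxx-KO libraries, so the shorter list came from the libraries with more reads per window. Among 18090 pairs of shared peaks, 94.1% had a lower fold enrichment in DKO, with a median ratio of 0.702, and 88.2% were narrower in DKO. A lower enrichment of the DKO libraries as a whole and less access at a given peak cannot be told apart from the length of the lists. For this reason the counts were repeated on equal numbers of peaks and within classes of equal height, and composition was compared within each list.

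Most Daxx-KO peaks had no counterpart in DKO, and few DKO peaks were without a counterpart in Daxx-KO. In Daxx-KO, 26566 of 44694 peaks had no DKO peak (59.4%, Wilson 95% interval 59.0 to 59.9), and in DKO 3715 of 22156 had no Daxx-KO peak (16.8%, interval 16.3 to 17.3). Promoter peaks, within 1000 bp of a transcription start site, were kept more often than distal peaks. Of the distal Daxx-KO peaks 21060 of 27611 (76.3%) were without a DKO peak, against 5506 of 17083 promoter peaks (32.2%). The DKO-only peaks were likewise mostly distal, with 3133 of 9888 distal peaks (31.7%) and 582 of 12268 promoter peaks (4.74%). The intervals cover counting error over peaks only, and with 1 list per group no spread between libraries and no p-value could be given.

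With the Daxx-KO list cut to its 22156 peaks of highest fold enrichment (6.30 and above), the shares became 40.7% without a DKO peak and 39.7% without a Daxx-KO peak. Equal length forces the 2 shares close together, and 5080 DKO peaks then lacked a partner only because it had been dropped. The order of distal and promoter peaks did not depend on the length, with 64.4% and 15.3% of Daxx-KO peaks and 57.5% and 25.4% of DKO peaks unmatched. Ranked by −log10 p in place of fold enrichment, the overall shares were 31.8% and 30.5%, those of distal peaks 54.7% and 52.5% and those of promoter peaks 13.0% and 12.8%.

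Height separated promoters from distal elements further. When all Daxx-KO peaks were divided into quintiles by fold enrichment, 69.0% of promoter peaks in the lowest quintile and 5.92% in the highest had no DKO peak. For distal peaks the corresponding shares were 87.1% and 50.2%, so that in the highest quintile (fold enrichment 8.80 to 45.9) about as many distal peaks were absent from DKO as were kept. In the DKO list, 36.8% of distal peaks in the lowest quintile and 11.9% in the highest were DKO-only, whereas only 2 of 4052 promoter peaks in the highest quintile (0.0494%) were.

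**Figure D1:**
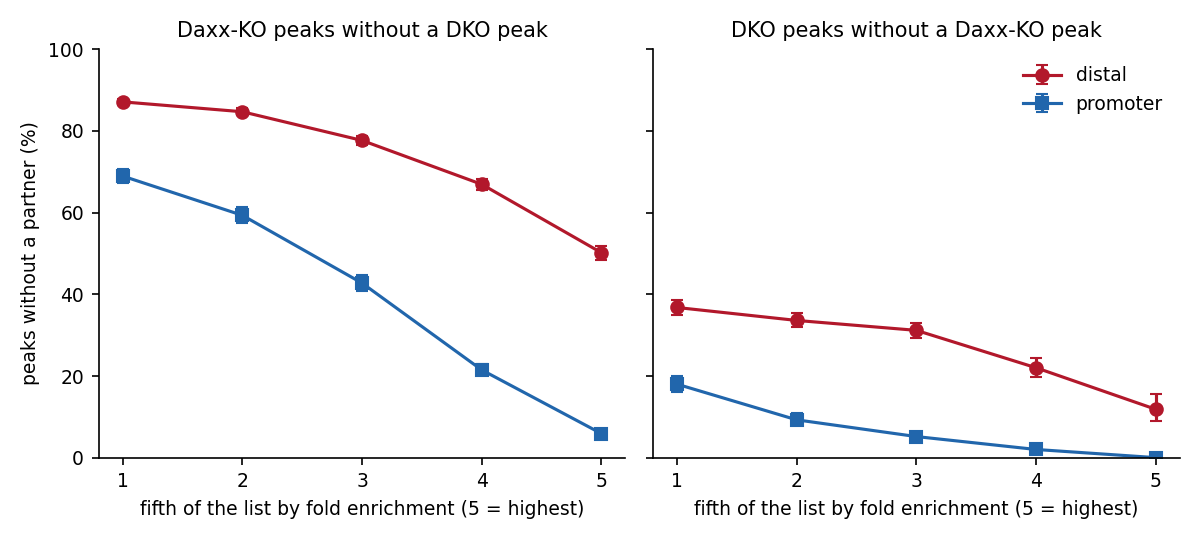
Share of peaks without a counterpart in the other list (y axis, percent) in quintiles of peaks ordered by fold enrichment within their list (x axis, lowest to highest), for distal and promoter peaks, with Wilson 95% intervals. In the highest quintile 50.2% of distal Daxx-KO peaks had no DKO peak, against 5.92% of promoter peaks.

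The classes also differed in form. Daxx-KO-only peaks had a median width of 748 bp, a GC content of 48.5% and a median distance of 13527 bp to the nearest start site of a protein-coding gene, and shared Daxx-KO peaks had 1100 bp, 55.2% and 0 bp. DKO-only peaks were narrower still (571 bp) with a GC content of 48.3%. Both unmatched classes were thus AT-richer and more distal than the shared peaks, which were promoters in 63.9% of cases.

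Named peaks show the range of the classes. The highest Daxx-KO-only distal peaks lay nearest to Cxcl5 (fold enrichment 16.3), Akr1d1 (14.9), Esr1 (14.9), Foxo1 (14.7) and Vmn2r27 (14.6), of which those at Esr1 and Vmn2r27 were intronic and the others between genes. All 5 were also present in the Daxx-WT lists of KLS cells, LT-HSCs, common myeloid progenitors (CMPs) and GMPs. The highest Daxx-KO-only promoter peaks, nearest to Raet1d, Olfr1033, 2200002J24Rik, Lilra5 and Slc7a11, had fold enrichments from 14.4 to 16.3 and were present in the same 4 lists, and the Lilra5 peak, near a leukocyte immunoglobulin-like receptor, held a Pu.1 match.

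The highest DKO-only distal peaks lay nearest to Ifngr2, which encodes a subunit of the interferon-γ receptor (10.8), Gm3376 (10.6), Il1rapl1 (10.5), Gramd3 (8.82) and Il1f10, a member of the IL-1 family (8.69). The first 3 of these were at most 316 bp wide and were present in Daxx-WT KLS cells. The Il1f10 peak was 902 bp wide, absent from Daxx-WT KLS cells and LT-HSCs, present in CMPs and GMPs, and is the first C/EBP example printed above. Among DKO-only promoter peaks, the highest lay nearest to Zfp386 (2 peaks, at immunoglobulin heavy-chain variable segments far from Zfp386 itself), Mpc1, Numb, which antagonises Notch signalling, and Sp3, a ubiquitous GC-box factor, with fold enrichments from 6.83 to 7.02. All 5 were present in Daxx-WT GMPs and absent from LT-HSCs, and the Sp3 peak held a C/EBP match.

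The highest shared distal peaks lay nearest to Pak3, Tnc, Epm2a, Frmd4a and Epha7, with fold enrichments from 27.5 to 45.9 in Daxx-KO and widths from 296 to 551 bp, and the highest shared promoter peaks lay nearest to Chrm3, Gm15319, Fggy, Cacng2 and 4930467E23Rik (17.1 to 31.2). To compare heights between lists of unlike scale, each peak was given its percentile within its list. Ncoa2, a nuclear receptor coactivator, changed by 86.5 points from Daxx-KO to DKO, followed by peaks nearest to Tas2r143, Irf2bp2, Pacs2 and Hdc, which makes histamine in mast cells and basophils (72.6 points). The promoter of the histone gene Hist1h4n changed by -90.3 points, followed by peaks nearest to Dpp6, Cntnap2, Zdhhc3 and Ppa2 (to -85.4 points).

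Which stage of normal differentiation the peaks belonged to was read from the Daxx-WT lists of LT-HSCs, CMPs and GMPs. These lists came from other mice, sorts and library preparations (Rosa26CreERT2 line, tamoxifen), and they hold positions without heights. Among Daxx-KO-only peaks 88.6% were present in LT-HSCs, 79.9% in CMPs, 67.4% in GMPs and 51.4% (13667) in Daxx-WT KLS cells, against 92.2%, 87.1%, 79.1% and 68.2% of all Daxx-KO peaks. Most Daxx-KO-only peaks (59.1%) were present in all 3 stages, and 26.9% were present in LT-HSCs and absent from GMPs. The DKO-only peaks had the opposite order, with 19.6% present in LT-HSCs, 42.1% in CMPs and 68.4% in GMPs, and only 339 of 3715 (9.13%) in Daxx-WT KLS cells. Shared Daxx-KO peaks were present in 96.2 to 97.6% in each of these 3 stages.

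**Figure D2:**
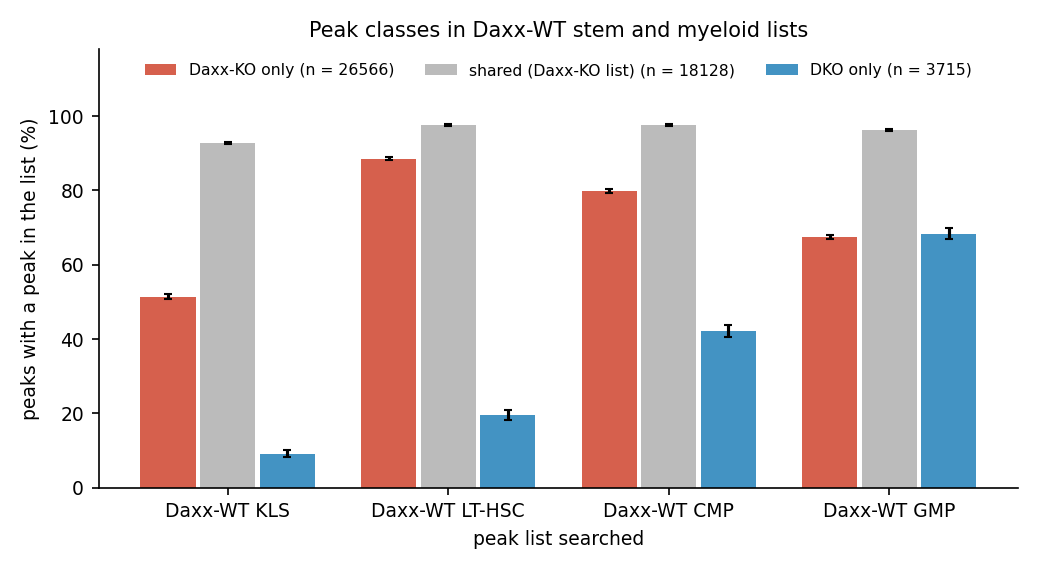
Share of each class of peaks (y axis, percent, with Wilson 95% intervals) that had a peak in the Daxx-WT lists named on the x axis. The share of Daxx-KO-only peaks decreased from 88.6% in LT-HSCs to 67.4% in GMPs, and that of DKO-only peaks increased from 19.6% to 68.4%.

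Stage combinations gave the same order among distal peaks. Distal Daxx-KO peaks found in LT-HSCs alone were absent from DKO in 94.9% of cases (2894 of 3051), those in LT-HSCs and CMPs in 90.7% (2940 of 3240), and those in all 3 stages in 68.1% (12045 of 17696). Peaks found in CMPs and GMPs but not LT-HSCs were absent in 82.6%, also above the share over all distal peaks. On the DKO side, 850 of 878 distal peaks found in GMPs alone (96.8%) and 851 of 1111 found in CMPs and GMPs (76.6%) had no Daxx-KO peak. Only 38 of 351 found in LT-HSCs and CMPs (10.8%) and 361 of 6172 found in all 3 stages (5.85%) were DKO-only. A set of 867 distal DKO-only peaks (93.4% of 928) had no peak in any of the 3 Daxx-WT stages.

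The order was also present among high peaks. In the highest quintile of Daxx-KO peaks, distal peaks present in LT-HSCs and absent from GMPs had no DKO peak in 80.8% of 317 cases, against 45.9% of those in all 3 stages. Those present in GMPs and absent from LT-HSCs had none in 50 of 70 cases (71.4%, interval 59.9 to 80.7). Both kinds of restricted peaks were thus absent from DKO more often than peaks of all 3 stages. In the highest quintile of DKO peaks, 30 of 41 distal peaks present in GMPs and absent from LT-HSCs were DKO-only (73.2%), against 0 of 4 of the opposite kind, a number too small to read. Among shared distal pairs the 282 present in GMPs and absent from LT-HSCs had a median change of 3.48 percentile points from Daxx-KO to DKO. The median over all shared distal pairs was -18.4, and that of the 457 present in LT-HSCs and absent from GMPs was -23.9. With equal numbers of peaks the DKO-only peaks were present in LT-HSCs in 62.5% and in GMPs in 82.0%, and the Daxx-KO-only peaks in 94.7% and 77.3%. The directions thus held, with smaller distances between the classes.

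Motif matches were counted within 100 bp on each side of the strongest summit of distal peaks, on both strands. The Pu.1 letters were found in 2313 of 21060 Daxx-KO-only peaks (11%), in 7.02% of the shared Daxx-KO peaks and in 127 of 3133 DKO-only peaks (4.05%), beside 1.21% of genome windows of the same length. The C/EBP letters had the opposite order, with 9.25% of Daxx-KO-only peaks, 13.3% of the shared DKO peaks and 1013 of 3133 DKO-only peaks (32.3%), beside 9.43% of genome windows. The motif that marks the removed factor was thus most frequent in the peaks absent from DKO, and the letters of the granulocytic C/EBP factors in the peaks found in DKO alone. A match is a match of letters and not a measured binding event.

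Read the other way, 83.4% of distal Daxx-KO peaks with the Pu.1 letters had no DKO peak, against 75.5% of those without, and in the highest quintile 65.4% against 47.9%. Of distal DKO peaks with the C/EBP letters 53.0% were DKO-only, against 26.6% of those without. In each quintile of height the C/EBP letters were more frequent in DKO-only than in shared distal peaks, from 27.7% against 10.5% in the lowest to 31.1% against 13.5% in the highest, and the Pu.1 letters more frequent in Daxx-KO-only than in shared peaks, from 9.0% against 5.22% to 16.8% against 8.93%.

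The matches were concentrated at the summit. Per 20 bp, the C/EBP letters occurred in 5.79% of DKO-only distal peaks within 40 bp of the summit and in 0.811% beyond 400 bp, and in Daxx-KO-only peaks in 0.978% and 0.820%. The Pu.1 letters occurred in 1.94% of Daxx-KO-only peaks within 40 bp and in 0.127% beyond 400 bp, and in DKO-only peaks in 0.583% and 0.102%. A remnant of summit-centred Pu.1 letters was therefore present in DKO-only peaks as well.

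**Figure D3:**
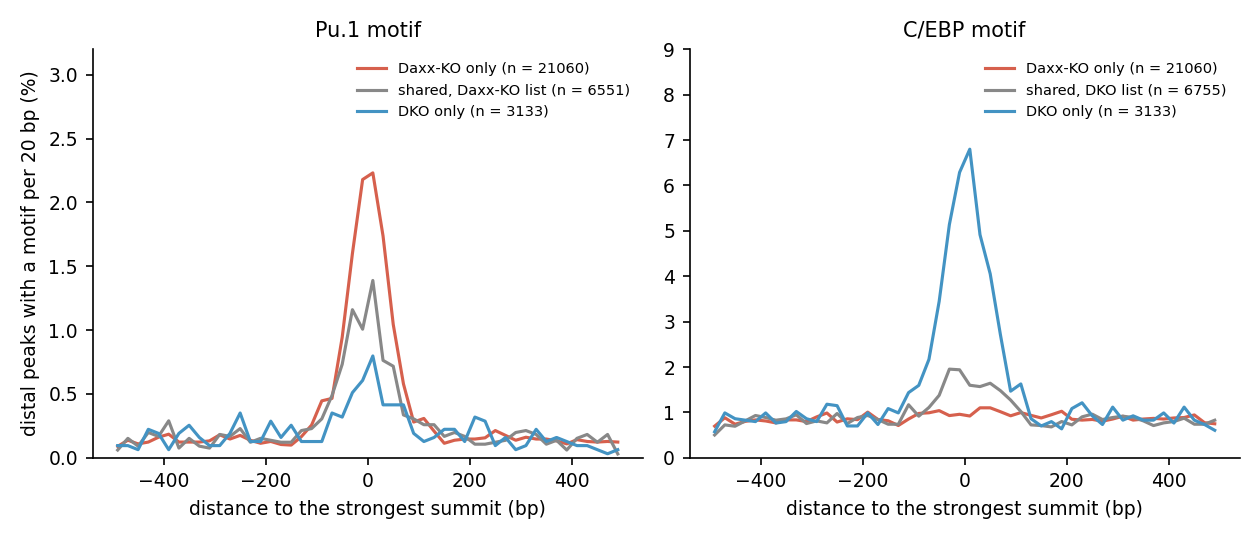
Share of distal peaks with the Pu.1 letters (left) or the C/EBP letters (right) per 20 bp (y axes, percent, on different scales) against the distance to the strongest summit (x axes, bp), by class. Within 40 bp of the summit the C/EBP curve of the DKO-only peaks had a mean of 5.79%, and the Pu.1 curve of the Daxx-KO-only peaks a mean of 1.94%.

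Stage and motif went together in part. DKO-only distal peaks present in GMPs and absent from LT-HSCs held the C/EBP letters in 677 of 1701 cases (39.8%), those of the opposite kind in 16 of 115 (13.9%), and those in neither stage in 26.7%. Daxx-KO-only peaks present in GMPs and absent from LT-HSCs held the Pu.1 letters in 18.0%, and those of the opposite kind in 6.79%. The GATA letters AGATAA were found in 7.42% of the first and 13.8% of the second kind, beside 13.4% of genome windows. The most frequent words behind the C/EBP match in DKO-only peaks were TTGCACAA (6.22%), TTGCTCAA (5.33%) and TTGCAAAA (4.82%), against 1.82%, 1.45% and 1.27% in shared DKO peaks. The Csf3r example printed above holds TTGCACAA, and the Kit and Erg examples TTGCAAAA.

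The other motifs are given in the same way. The ETS-IRF letters GAANNGAAA, a composite site that Pu.1 binds with IRF4 or IRF8, were found in 8.65% of Daxx-KO-only and 4.28% of DKO-only distal peaks, beside 7.35% of genome windows. The RUNX letters TGTGGTTT had 6.92% and 7.02%, beside 1.79% of genome windows, so that this motif of stem and myeloid cells was about equal in both unmatched classes. The AP-1 letters TGACTCA had 7.37% and 8.36%. The CTCF letters CNAGGGGGC had 3.11% in Daxx-KO-only and 0.989% in DKO-only peaks, against 4.0% in shared Daxx-KO peaks. The KLF/SP letters CCCCGCCC, a GC box, had 2.27% in Daxx-KO-only, 5.57% in shared Daxx-KO and 1.69% in DKO-only peaks, and distal Daxx-KO peaks with them were absent from DKO in 56.8% of cases against 76.9% without. This difference was larger than that for the Pu.1 letters and of opposite direction.

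Peaks were then assigned to the nearest start site of a protein-coding gene and read by 13 gene lists. Over all genes, 59.4% of Daxx-KO peaks had no DKO peak, 3867 of 15363 genes with a Daxx-KO peak kept none (25.2%), and 2591 of 12000 genes with a DKO peak had a DKO-only one (21.6%). In 8 of the 13 lists the share without a DKO peak lay above that of all peaks. The erythroid list had 43 of 55 (78.2%), the dendritic cell list 73 of 97 (75.3%), the mast cell, basophil and eosinophil list 33 of 44 (75%), the B lymphoid list 65 of 87 (74.7%) and the stem and progenitor list 137 of 185 (74.1%). The granulocyte and monocyte list followed with 76 peaks (64.4%), the inflammatory mediators with 62.3% and the ETS factors and Pu.1 partners with 60.6%. Below the share of all peaks lay the megakaryocyte list (55.8%), the T and NK lymphoid list (55.4%), the interferon response (53.7%), housekeeping genes (34.8%) and Daxx and its H3.3 partners (32.1%).

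DKO-only peaks were most frequent in 3 lists. The mast cell, basophil and eosinophil list had 7 of 18 (38.9%), the granulocyte and monocyte list 27 of 70 (38.6%) and the stem and progenitor list 28 of 77 (36.4%). Kit belongs to the first and the last of these lists, and 5 DKO-only peaks of each were its own. Over all genes the share was 16.8% of DKO peaks, with 31.7% of distal and 4.74% of promoter peaks. Daxx and its H3.3 partners had 0 of 18. Of the 27 granulocyte and monocyte peaks 23 were present in Daxx-WT GMPs, and of the 28 stem and progenitor peaks 19. Lists rich in distal peaks have higher shares. Of the distal Daxx-KO peaks over all genes 76.3% had no DKO peak. In the erythroid list these were 36 of 39 (92.3%), in the stem and progenitor list 115 of 140 (82.1%) and in the granulocyte and monocyte list 57 of 77 (74.0%). The last thus lay below the share of all distal peaks. With equal numbers of peaks 10 of the 13 lists lay above the 40.7% of all peaks.

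**Figure D4:**
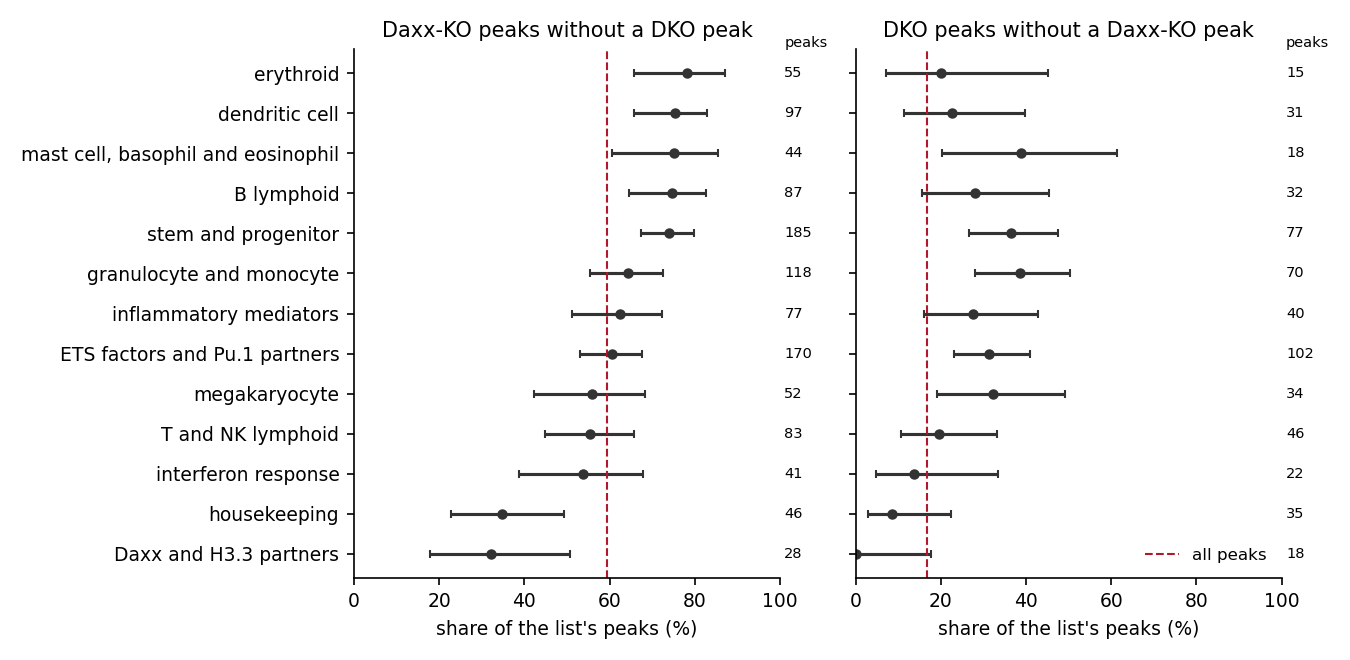
Share of Daxx-KO peaks without a DKO peak and share of DKO peaks without a Daxx-KO peak (x axis, percent, with Wilson 95% intervals) for each gene list (y axis), by the nearest start site, with the share over all peaks as a line. The erythroid list had the highest share of Daxx-KO-only peaks (78.2%) and the mast cell, basophil and eosinophil list the highest share of DKO-only peaks (38.9%). Most of the latter peaks lay nearest to Kit, which is also in the stem and progenitor list.

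The stem and progenitor genes with the most Daxx-KO-only peaks were Runx1, Meis1, Mecom and Prdm16. Meis1, a homeobox partner of HOXA9 that maintains stem cells, kept 2 of 15 peaks, and Mecom, which encodes the stem cell factor EVI1, kept 3 of 15. Prdm16 kept 1 of 13, and Runx1, the central factor of definitive haematopoiesis, 8 of 24. Over all genes 59.4% of peaks and 76.3% of distal peaks had no DKO peak, and other members of the list kept most of theirs, such as Gata2 with 3 of 4 and Hoxb4 with 2 of 2. In the DKO table, 86002 bp from the Meis1 start site, the DKO libraries had 78.47 and 61.83 scaled reads and the Daxx-WT libraries 275.11 and 263.23 (log2 ratio -1.92). At 40952 bp, the site of the Pu.1 example printed above, they had 97.56 and 75.89 against 306.17 and 274.2 (-1.73). Within peaks of either list Meis1 had 12 sites in the DKO table, and all 12 were lower in DKO, with no overlap of the libraries. Over all genes 10824 of 15543 such sites (69.6%) were lower in DKO. By its selection, the DKO table has no overlap between DKO and Daxx-WT libraries at 50909 of its 50928 sites (100%), and the Daxx-KO table none at 99.6% of its sites.

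Kit and Erg had peaks of both classes. Kit, the receptor of stem cell factor, kept 3 of 11 Daxx-KO peaks and had 5 DKO-only peaks, 3 of them with the C/EBP letters. The ETS factor Erg kept 2 of 11 and had 6 DKO-only peaks, 5 of them present in Daxx-WT GMPs. At the Erg site with the C/EBP example printed above, 70045 bp from the start site, the DKO libraries had 161.18 and 121.79 scaled reads and the Daxx-WT libraries 47.92 and 61.42 (log2 ratio 1.36), while 18695 bp from the start they had 174.97 and 187.37 against 394.03 and 383.88 (-1.10). Neighbouring elements of 1 gene therefore stood on opposite sides of the controls. Chd7, a chromatin remodeller and no member of the lists, had the most DKO-only peaks of all genes, 11 of its 19, and 10 of these were present in GMPs.

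Granulocyte and monocyte genes differed among themselves. Irf8, a monocyte and dendritic cell factor that pairs with Pu.1, kept 2 of 13 peaks, Klf4, a monocyte factor, kept 3 of 15, and Itgam, the integrin CD11b, kept 0 of 5. Over all genes 59.4% of peaks and 76.3% of distal peaks had no DKO peak. The Irf8 promoter had 75.29 and 54.34 scaled reads in DKO against 131.34 and 107.49 in Daxx-WT (log2 ratio -0.87). The Itgam element of the Pu.1 example had 65.75 and 83.38 against 188.14 and 201.81 (-1.37). Both DKO libraries were below both controls at these sites. Other sites of the same genes were higher in DKO, namely 2 of 5 at Itgam and 1 of 4 at Irf8, and Itgam had 1 DKO-only peak. Over all genes 4719 of 15543 listed sites in peaks of either list were higher in DKO.

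Other members had DKO-only peaks. Csf3r, the receptor of G-CSF, kept 1 of 2 Daxx-KO peaks and had 3 DKO-only peaks, and 130400 bp from its start site the DKO libraries had 158 and 119.92 scaled reads against 19.52 and 19.74 in Daxx-WT (log2 ratio 2.76). Ctsg, the granule protease cathepsin G, had 291.61 and 207.98 at its promoter against 46.15 and 100.91 (1.75). S100a8 and S100a9 form calprotectin, the abundant cytosolic protein of neutrophils. The S100a8 promoter had 81.65 and 83.38 against 15.97 and 36.19 (1.62), and the S100a9 promoter 211.02 and 133.03 against 35.5 and 70.19 (1.68). At these 4 sites both DKO libraries lay above both Daxx-WT libraries, which the selection of the sites by their difference favours. Genes of granule proteins did not all have this direction, since Mpo kept 0 of 1 Daxx-KO peak, the lysozyme gene Lyz2 0 of 2 and Prtn3, which encodes proteinase 3, 2 of 5, and none of these had a DKO-only peak.

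Promoters could be read gene by gene. Among protein-coding genes 13579 had a promoter peak in Daxx-KO, of which 2499 had none in DKO (18.4%), and 11205 had one in DKO, of which 125 had none in Daxx-KO (1.12%). Of the 2499 absent from DKO, 1683 had a promoter peak in Daxx-WT KLS cells. In the granulocyte and monocyte list 10 of 28 were absent from DKO, namely Irf8, Itgam, Fcgr1, Cd14, Lyz2, Mpo, Ncf1, Tlr4, Fgr and Tyrobp, and all 10 were present in Daxx-WT KLS cells. The DKO-only promoters of the lists were Ctsg, S100a8, S100a9 and, in the mast cell, basophil and eosinophil list, Mcpt8. In the stem and progenitor list 8 of 23 promoters were absent from DKO, among them Cd34, Procr, Hoxa9, Tal1, Erg, Fli1 and Prdm16.

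Lymphoid and inflammatory promoters were absent from DKO more often. Their presence in Daxx-WT KLS cells stands beside 1683 of 2499 such promoters over all genes. The B lymphoid list had 8 of 14 (Ebf1, Cd79b, Blnk, Rag1, Il7r, Ikzf3, Cd22 and Irf4), of which 2 were present in Daxx-WT KLS cells, so that 6 were found in Daxx-KO and in neither of the others. The T and NK lymphoid list had 7 of 13 with 1 in Daxx-WT, and the inflammatory mediators 10 of 16 (Il6, Il1r1, Ccl2, Ccl3, Ccl4, Cxcl2, Cxcl10, Nlrp3, Il18 and Csf2) with 6 in Daxx-WT. The megakaryocyte list had 5 of 12, the dendritic cell list 6 of 12, the mast cell, basophil and eosinophil list 3 of 6, the ETS factors and Pu.1 partners 5 of 23, the interferon response 5 of 19 and the erythroid list 2 of 10. Housekeeping genes and Daxx with its H3.3 partners kept all of their 15 promoters each.

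The promoters themselves held few of the letters. In RefSeq (GRCm38.p6) promoters, 250 bases before to 50 after the start, the C/EBP letters occur in 10.8% and the Pu.1 letters in 3.2% of 32851 promoters. The S100a9 promoter held 1 C/EBP match, the S100a8 promoter and the Mpo promoter, of the peroxidase of azurophilic granules, 1 Pu.1 match each, and those of Ctsg and Mcpt8 held neither. The matches of S100a9 and S100a8, with a promoter peak in DKO and none in Daxx-KO, and of Mpo, with one in Daxx-KO and none in DKO, are printed on the strand of the gene (capitals mark the match).
S100a9 chr3:90695912-90695971, minus strand: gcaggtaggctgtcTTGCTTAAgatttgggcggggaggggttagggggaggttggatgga
S100a8 chr3:90668873-90668932, plus strand: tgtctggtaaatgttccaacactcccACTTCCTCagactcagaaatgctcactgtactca
Mpo chr11:87793534-87793593, plus strand: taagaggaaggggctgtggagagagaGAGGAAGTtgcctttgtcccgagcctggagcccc

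In the lymphoid, erythroid and megakaryocyte lists the members with the most unmatched peaks are given. Over all genes 59.4% of peaks and 76.3% of distal peaks had no DKO peak. Of the Daxx-KO peaks, 20 of 24 at Bach2 and 18 of 19 at Zfpm1 were distal. Bach2, a repressor of B and T cells, kept 5 of 24 peaks, Foxo1 4 of 14 and Irf4, which shares composite sites with Pu.1, 0 of 7. The Irf4 promoter had 75.29 and 64.64 scaled reads in DKO against 158.85 and 155.74 in Daxx-WT (log2 ratio -1.16). Syk, a kinase of immune receptors, kept 5 of 11 and had 6 DKO-only peaks. Among T and NK genes Tcf7 kept 2 of 10, Gata3 4 of 10 and Runx3 8 of 16. Zfpm1, the GATA-1 cofactor FOG1, kept 3 of 19. Vwf kept 1 of 7, while Thbs1 kept 5 of 10 and had 8 DKO-only peaks, 4 with the C/EBP letters.

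The members with the most unmatched peaks in the remaining lists were chosen in the same way. Their counts stand beside the same shares over all genes, 59.4% of peaks and 76.3% of distal peaks without a DKO peak. Id2, needed for dendritic and innate lymphoid cells, kept 8 of 28 and Tcf4, the factor of plasmacytoid dendritic cells, 4 of 17. Mitf, a mast cell factor, kept 2 of 10 and Hdc 1 of 7. The ETS factor Fli1 kept 2 of 10, and 4 of the 8 absent peaks held the Pu.1 letters. Among inflammatory mediators Il1r1, the IL-1 receptor, kept 0 of 6 and Csf2, which encodes GM-CSF, 0 of 5, whereas Tnfaip3, an inhibitor of NF-κB, kept 8 of 12. Ifih1, a sensor of double-stranded RNA, kept 1 of 5, and H3f3a, 1 of the genes for H3.3, 2 of 7. Over all genes the most Daxx-KO-only peaks lay nearest to Pde4d (40 of 56), Adgrl2 (36 of 41), Gse1 (25 of 37), Zmiz1 (23 of 31) and Zfp386 (22 of 55), and beside Chd7 the most DKO-only peaks nearest to Zfp386 (10), Sfi1 (9), Thbs1 (8) and Bcl2l11 (6 of 10, a number that other genes share).

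The site tables give values per library behind the peak classes, from the same libraries as the lists. Each table lists sites that the authors selected for a difference from the 2 Daxx-WT libraries, which both tables share, and the tables were scaled separately. Of the DKO-only peaks 2951 of 3715 (79.4%) overlapped a site higher in DKO than in Daxx-WT and 13 (0.350%) a lower one. For the shared DKO peaks these shares were 6.37% and 13.1%. Of the Daxx-KO-only peaks 8347 of 26566 (31.4%) overlapped a site lower in DKO, against 13.8% of the shared Daxx-KO peaks. A site higher in Daxx-KO was overlapped by 1560 (5.87%), against 3.14% of the shared and 4.77% of all Daxx-KO peaks. Absence from the DKO list thus coincided with a listed decrease from Daxx-WT in 31.4% of peaks, and the presence of DKO-only peaks with a listed increase in 79.4%.

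Between the tables, whose sites can differ in position and length, only 2495 sites overlapped, by at least 1 bp. The log2 ratio to Daxx-WT, on scaled reads plus 1, was below the Daxx-KO ratio in DKO at 1085 of them (43.5%) and above it at 1410, and at 1373 (55.0%) the values of the libraries did not overlap. Of all listed sites, 14003 of 17311 (80.9%) were lower than Daxx-WT in Daxx-KO, and 36740 of 50928 (72.1%) were higher in DKO. By direction, 537 of the 2495 were higher than Daxx-WT in both knockouts and 872 lower in both. Another 291 were higher in Daxx-KO and lower in DKO, and 795 lower in Daxx-KO and higher in DKO. The overall split depends on the scaling, since with each library scaled to its mean reads per window 1698 of the 2495 sites (68.1%) were below in DKO and the median difference moved by -1.21 on the log2 scale. Within peaks the direction went with the class. The classes come from lists called on the same libraries, which favours these directions in advance, so the counts are no independent result. In Daxx-KO-only peaks the DKO ratio was below at 528 of 697 sites (75.8%; 695 with the other scaling), and in DKO-only peaks above at 248 of 252 (213 with the other scaling).

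Sites on opposite sides of the controls show the classes at single genes. In an intron of Mecom, 47973 bp from the nearest start, the Daxx-KO libraries had 82.4, 77.86 and 82.78 scaled reads against 55.65 and 49.29 in Daxx-WT, and the DKO libraries 24.39 and 18.74 against 56.8 and 46.07. Near Foxo1, 299565 bp away and between genes, Daxx-KO had 32.29, 38.49 and 41.39 against 16.42 and 17.19, and DKO 12.72 and 17.8 against 32.84 and 53.74. At both sites the Daxx-KO libraries lay above and the DKO libraries below the Daxx-WT libraries of their own table. The tables were scaled separately and their paired intervals can differ, so reads are not comparable between them. Ncf4, a subunit of the neutrophil NADPH oxidase, had the reverse pattern 1651 bp from its start, with 27.84, 10.5 and 17.87 in Daxx-KO against 43.79 and 43.56, and 215.26 and 211.73 in DKO against 84.31 and 89.94.

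The S100a9 promoter was low in Daxx-KO (17.82, 11.37 and 11.29 against 20.07 and 48.14) and high in DKO, as given above. The promoter of Mcpt8, a protease of basophils, was higher in both knockouts, with 53.45, 43.74 and 46.09 in Daxx-KO against 14.6 and 30.95, and 160.12 and 100.24 in DKO against 15.97 and 41.68. Meis1 had 3 listed sites lower in both. At 62052 bp from its start Daxx-KO had 34.52, 33.24 and 33.87 against 57.47 and 64.19, and DKO 96.5 and 76.82 against 200.56 and 185.36. The 2 genotypes thus lay on the same side of Daxx-WT at some of these genes and on opposite sides at others.

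**Figure D5:**
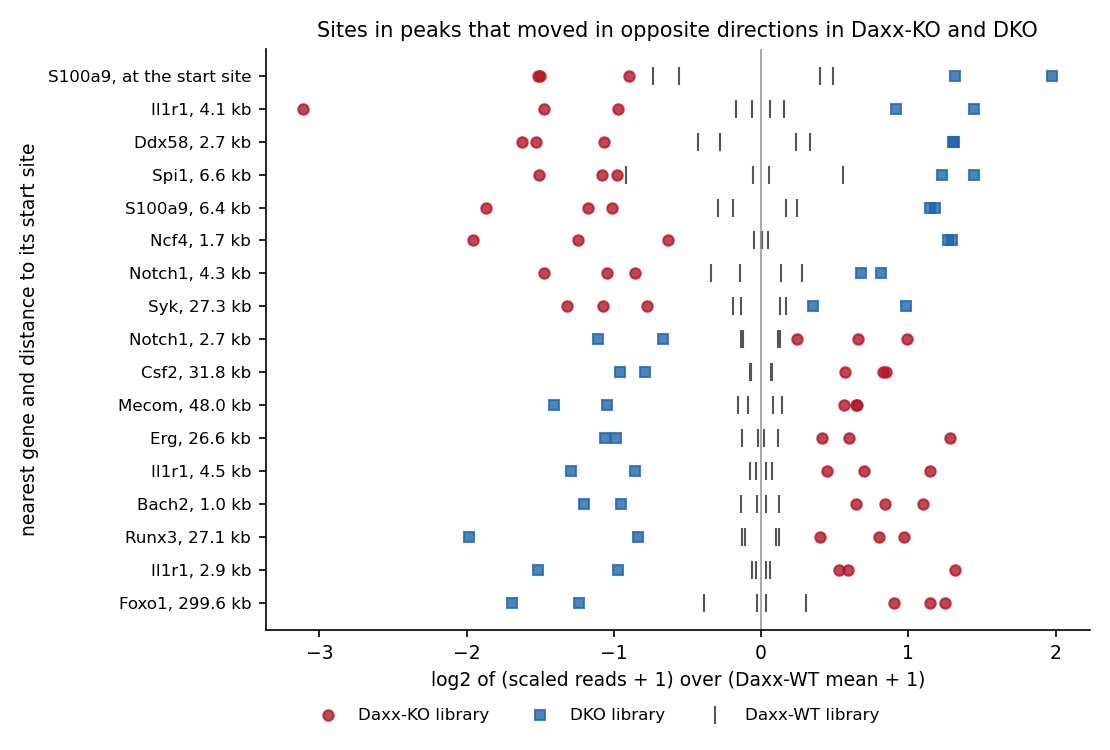
Listed sites in peaks of either list (y axis, nearest gene and distance to its start) that lay above Daxx-WT in one knockout and below in the other. Each row joins overlapping sites of the tables, whose intervals can differ. Each point is 1 library, as log2 of scaled reads plus 1 over the Daxx-WT mean plus 1 of its own table (x axis). The Mecom site lies above 0 in the 3 Daxx-KO libraries and below 0 in the 2 DKO libraries, and the Ncf4 site the other way round.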

How the data were processed

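ATAC-seq was performed on sorted KLS cells. Per the submitters' processing notes the tools were CASAVA 1.8.4, cutadapt 1.13, STAR 2.5.3 and bedtools with mm10, and the site tables name diffReps 1.55.6. The peak caller's version was not given in the sources used here. The peak lists deposited by the authors hold 1 list per group with a score that scales with the reproducibility of the peak between replicates (lowest score 415), a fold enrichment and a −log10 p. Lines that repeat an interval for several summits were collapsed (79299 lines in Daxx-KO, 40387 in DKO). The site tables hold, per the file headers, windows of 600 bp in steps of 50 bp with p under 0.0001, merged, with the reads of each library scaled by a constant. The authors' own comparison columns (fold changes, p-values) were not used.

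Intervals overlapping by at least 1 bp were called shared. Promoters lay within 1000 bp of any GENCODE M21 start site (GRCm38.p6, the same assembly as mm10), and the nearest gene was that of the nearest protein-coding start site, so that a promoter peak may lie far from its nearest gene. Shares have Wilson 95% intervals. Fold changes are log2 of scaled reads plus 1. Scripts were tested on simulated data and ran in Python 3.11.15 with numpy 2.4.6, pandas 2.3.3, SciPy 1.17.1 and matplotlib 3.10.9. The genes named were those with the most unmatched peaks and the peaks of highest fold enrichment or largest rank change, overall and in 13 lists. Members and lists were chosen with earlier results of these data known, and the choice of genes for printed sequences and for values per library was made after their values were seen. The division by height, the position of motif matches and the single C/EBP words were also added after the data were seen. The total number of reads per library is unknown, so no depth-based interval was given for single sites. Results for some genes are not reported here.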

Additional observations from a re-analysis of the deposited data

Results flagged for a closer look

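Most listed sites were lower than Daxx-WT in Daxx-KO (80.9%) and higher than Daxx-WT in DKO (72.1%). Of the 2495 sites in both tables, 291 were higher than Daxx-WT in Daxx-KO and lower in DKO and 795 the reverse. The 27 given here are a part of these, and at each of them every Daxx-KO library lay on one side of both Daxx-WT libraries and every DKO library on the other side. The difference between the groups was not tested, and the 2 Daxx-WT libraries are shared by both tables. Paired sites share at least 1 bp and can be different intervals, so opposite directions need not concern the same stretch of DNA. The Rffl pair, for example, joined chr11:82818901-82819500 of the Daxx-KO table with chr11:82817051-82818950 of the DKO table. Values are the log2 ratio to Daxx-WT in DKO minus that in Daxx-KO, for the 5 sites furthest apart in each direction and for sites of the listed genes that lie in a peak of either list.

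Higher in Daxx-KO and lower in DKO were Cdh12 (-3.13), Fbp2 (-2.96), Dnajb6 (-2.96), Gm3696 (-2.88) and Acoxl (-2.88). Of the listed genes this held for Foxo1 (-2.55), Il1r1 at 2 sites (-2.07 and -1.85), Runx3 (-2.04), Bach2 (-1.95), Erg (-1.84), Mecom (-1.83), Csf2 (-1.63) and 1 site of Notch1 (-1.54).

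Lower in Daxx-KO and higher in DKO were Rffl (3.79), Flt1 (3.74), Kif1a (3.73), Rptor (3.73) and Lemd2 (3.71). Of the listed genes this held for S100a9 at 2 sites (2.96 and 2.47), another site of Il1r1 (2.81), Ddx58, a sensor of viral RNA (2.69), Spi1 (2.51), Ncf4 (2.46), another site of Notch1 (1.85) and Syk (1.74). With each library scaled to its mean reads per window, all 27 kept opposite signs, and the libraries were no longer apart at 6 of them, at Cdh12, Notch1 (2 sites), Spi1, the S100a9 promoter and Syk.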

How the results depend on the processing

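No paired analysis was possible because the results come from no test and each peak list pools the libraries of its group. The share of Daxx-KO peaks without a DKO peak (59.4%) was 63.9% with 50% reciprocal overlap, 57.6% in the upper part of each list by fold enrichment, 40.7% and 31.8% with equal numbers by fold enrichment and by −log10 p, and 36.5% for the 10000 highest of each list. The share of DKO peaks without a Daxx-KO peak (16.8%) was 27.2%, 14.3%, 39.7%, 30.5% and 36.5% under the same alternatives and 15.6% at an irreproducible discovery rate of 0.05 or below. With promoters at 500 and 2000 bp, the promoter share was 17.1 and 26.9% of Daxx-KO-only, 61.7 and 67.2% of shared Daxx-KO, 11.2 and 22.6% of DKO-only and 60.9 and 67.0% of shared DKO peaks. Within 50 bp on each side of the summit the Pu.1 letters were in 8.36% of Daxx-KO-only and 4.81% of shared distal peaks, and the C/EBP letters in 23.8% of DKO-only and 7.85% of shared ones. With equal numbers by fold enrichment these were 13.6% of Daxx-KO-only peaks for Pu.1, and 24.6% of DKO-only and 12.2% of shared peaks for C/EBP. Of the 2495 sites in both tables, 1085 had the lower ratio in DKO, 1698 with each library scaled to its mean per window, 702 of 1262 sites with 50% reciprocal overlap, and 984 to 1133 with 1 library left out. The cause of these changes was not tested beyond the construction of the alternatives. Of the gene lists, 11 of 13 stayed on the same side of the share of all peaks with equal numbers, and 12 of 13 within 100 kb of a start site. Depth per library is known only as reads per window, and its part in these results was not tested.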

Other observations

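Outside the gene lists, further promoters with a peak in DKO and none in Daxx-KO included those of genes known from neutrophils, and these were chosen after their values were seen. They include Lcn2 (fold enrichment 5.70) and Camp (5.41), which encode proteins of neutrophil granules, the receptors Trem1 (6.70), Trem3 (6.00) and Fcgr4 (5.84), and Orm1, an acute-phase protein (5.12). These are 6 of the 125 such promoters, and the number expected for other groups of genes was not computed. Of the 6, only the Trem1 promoter also had a peak in Daxx-WT KLS cells.

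A DKO-only peak (fold enrichment 5.29) lay at chr2:91089022-91089652, upstream of exon 1 of the 5-exon Spi1 transcript and in an intron of the longer one. In the DKO table the site chr2:91086901-91089400, which covers only a part of this peak, had 314.94 and 270.75 scaled reads against 110.93 and 119.55 in Daxx-WT. In the Daxx-KO table an overlapping but different site, chr2:91089001-91090100, had 24.5, 33.24 and 35.75 against 37.4 and 105.46. The DKO libraries thus lay above the controls of their site and the Daxx-KO libraries below those of theirs. Reads of these different intervals are not comparable with each other.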
